A study of Mus musculus with 6 samples.

Results

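The unfolded protein response and the heat shock response were followed through 34 genes, 20 of the unfolded protein response and 14 of the heat shock response. Every probe on the array whose annotated gene name was one of these genes was taken, which gave 66 of the 56605 probes, 36 for the unfolded protein response and 30 for the heat shock response. The 34 genes are among 37074 gene names on the array. Of them, 15 genes had 1 probe, 9 genes had 2, 7 genes had 3 and 3 genes had 4. The arms are kept apart throughout.

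RNA had been taken from brainstem and cerebellum of mice aged 16 weeks, in 3 samples labelled MSA transgenic and 3 labelled wild type. Both genotypes are on a mixed background that the labels give as C57BL/6, 129 and C3H. MSA is not spelled out in the labels, which also leave out the transgene, its promoter, the founder lines and the sex, and do not state that the samples are separate animals. P-values therefore measure the spread between these samples, which may be technical. Each sample was hybridised to a single-colour array, and a level is the log2 intensity of a probe relative to the 75th percentile of its own array. A difference is the mean level of the transgenic samples minus that of the wild-type samples on this log2 scale, so that 1 is 2-fold. Levels of different probes are not comparable with each other.

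The unfolded protein response is set off when unfolded proteins build up in the endoplasmic reticulum (ER). The sensor PERK leads to translation of the transcription factor ATF4, IRE1 splices the mRNA of XBP1, and ATF6 is cut to release an active factor. Together they raise ER chaperones, folding enzymes and the machinery that sends misfolded proteins to the proteasome, and under lasting stress CHOP, the product of Ddit3. The heat shock response acts in the cytosol and nucleus, where the factor HSF1 induces HSP70, small heat shock proteins and their partners. XBP1 splicing, ATF4 translation and ATF6 cleavage are not themselves levels of mRNA, and the levels of their target genes are what an array of this kind can show.

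Of the 66 member probes, 64 were well above background on all 6 arrays. The 75th percentile of intensity was 609.2, 591.9 and 603.6 on the transgenic arrays, against 405.7, 562.4 and 535.0 on the wild-type arrays. The smallest share of probes well above background was 64.8%, on wild-type replicate 1, the 1 array of slide 1, and the other 5 arrays, all of slide 2, had 68.6% to 71.7%. Markers of the labelled tissue were present, with 5 of 5 Purkinje cell, 5 of 5 cerebellar granule cell and 5 of 5 brainstem neuron genes well above background on all 6 arrays. In a tissue of many cell types, fewer cells of a type and less RNA per cell cannot be told apart.

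Promoter sequences are given first because each arm has a DNA element of its own, although most members held neither in their window. RefSeq promoter windows (build GRCm38.p6, 250 bases before to 50 after each start) were on hand for 28 of the 34 members, 18 of the unfolded protein response and 10 of the heat shock response. The ER stress response element, searched as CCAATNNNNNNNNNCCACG on both strands, was in the windows of 6 of the 18, against 0 of the 10 and 37 of 27025 genes in all, or 0.137%. It is known to be bound by NF-Y at CCAAT and by ATF6 at CCACG. The 7 sites of these 6 genes, with both ends in capitals and read on the strand of the motif, were as follows.
Hspa5, ending 47 bases before the start, chr2:34772025-34772043: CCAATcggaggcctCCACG
Hsp90b1, ending 89 bases before the start, chr10:86705533-86705551: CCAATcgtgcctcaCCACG
Hsp90b1, ending 194 bases before the start, chr10:86705638-86705656: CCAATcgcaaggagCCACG
Calr, ending 144 bases before the start, chr8:84847075-84847093: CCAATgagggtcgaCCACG
Dnajc3, ending 87 bases before the start, chr14:118937827-118937845: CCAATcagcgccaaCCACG
Pdia6, ending 80 bases before the start, chr12:17266491-17266509: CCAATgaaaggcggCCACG
Creld2, ending 108 bases before the start, chr15:88819520-88819538: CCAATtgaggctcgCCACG

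The 250 bases upstream of the start are shown for the ER chaperones Hspa5 and Hsp90b1, on the strand of the gene, with these sites in capitals. Hspa5 lies on the plus strand (chr2:34771840-34772089) and Hsp90b1 on the minus strand (chr10:86705445-86705694), and the site of Hsp90b1 nearer to its start runs on the opposite strand.
Hspa5 promoter: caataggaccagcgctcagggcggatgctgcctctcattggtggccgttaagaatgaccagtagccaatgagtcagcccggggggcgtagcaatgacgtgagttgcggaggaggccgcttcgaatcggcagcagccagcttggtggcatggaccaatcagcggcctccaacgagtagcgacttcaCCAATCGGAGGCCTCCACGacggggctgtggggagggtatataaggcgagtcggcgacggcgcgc
Hsp90b1 promoter: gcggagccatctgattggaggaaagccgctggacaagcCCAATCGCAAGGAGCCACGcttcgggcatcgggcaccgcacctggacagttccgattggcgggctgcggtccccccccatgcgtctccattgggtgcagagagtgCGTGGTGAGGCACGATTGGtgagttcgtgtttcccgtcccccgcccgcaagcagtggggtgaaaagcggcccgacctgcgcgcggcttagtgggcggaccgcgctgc

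The heat shock element, searched as GAANNTTCNNGAA or TTCNNGAANNTTC on both strands (each is the reverse complement of the other), was in 3 of the 10 windows of the heat shock response, those of Hsph1, Hspd1 and Hspe1, against 0 of 18 of the unfolded protein response and 0.662% of all genes. In Hsph1 it lay after the start. Hspd1 and Hspe1, which encode the mitochondrial chaperonin HSP60 and its partner HSP10, are a divergent pair, and the element lay in 2 overlapping copies between the start of Hspe1 and 1 of the 2 starts of Hspd1. These 30 bases on the strand of Hspe1 (chr1:55088053-55088082, plus strand, 95 to 66 bases before its start) hold both copies in capitals.
Hspe1 and Hspd1 shared stretch: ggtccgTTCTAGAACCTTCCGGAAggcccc
The XBP1 element TGACGTGG and the ATF4 composite element, searched as TGATGNAAT, both on both strands, were in no window of either arm and in 0.714% and 1.08% of all genes. Variants of these patterns were not searched, so a window without a match may still hold a variant of the element. The CCAAT box alone, which overlaps the ER stress response element, was in 15 of 18 and 6 of 10 windows and in 41.1% of all genes. A match is a run of letters and not a measured binding site.

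Of the probes on which the results turn, 4 are shown, in lower case since no part of them is singled out. They are a Hspa5 probe (chr2:34631136-34631195, plus strand), a Hspe1 probe that was low in a single sample (chr1:55147620-55147946, plus strand, across an exon junction), a Hsp90aa1 probe without overlap between the genotypes (chr12:111933318-111933377, minus strand) and the second Asns probe (chr6:7626110-7626255, minus strand, across an exon junction), all in mm9.
Hspa5 probe: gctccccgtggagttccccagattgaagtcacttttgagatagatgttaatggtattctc
Hspe1 probe: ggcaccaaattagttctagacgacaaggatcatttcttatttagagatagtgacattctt
Hsp90aa1 probe: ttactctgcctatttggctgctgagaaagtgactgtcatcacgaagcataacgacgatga
Asns probe: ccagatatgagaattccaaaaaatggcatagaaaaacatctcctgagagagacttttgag

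Of the 66 member probes, 64 were tested, 35 of the unfolded protein response and 29 of the heat shock response, and all 64 were well above background on all 6 arrays. A Hyou1 probe, well above background on 2 of 3 transgenic and 1 of 3 wild-type arrays, and a Hsp90aa1 probe, on 0 of 3 and 0 of 3, were not tested. The Hsp90aa1 probe (chr12:111929938-111929997, mm9) is annotated to an expressed sequence tag, and the other Hsp90aa1 probes were bright.

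No member of either arm was called between MSA transgenic and wild-type samples, with 3 arrays a genotype. In limma with Benjamini-Hochberg adjustment, 0 of 35 probes of the unfolded protein response and 0 of 29 of the heat shock response passed an adjusted p of 0.05, where 0.0286% of all 38463 tested probes did. The smallest adjusted p of a member was 0.843. At an unadjusted p under 0.05 there were likewise 0 of 64 members, against 5.59% of all probes. With a background of 0.0286%, a count of 0 among 64 is near what the array gave in general.

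The 95% intervals give a range for each difference from the spread between these samples. They are not adjusted for the number of probes. As that spread may be technical, they need not bound the difference between the genotypes. Where a gene had several tested probes, the brightest on average stood for it. On this basis the 95% interval of the difference lay within 2-fold in either direction for 33 of 34 genes, Trib3 being the exception, and within 1.5-fold for 29. The median difference of the 20 unfolded protein response genes was -0.045, with 8 higher and 12 lower in transgenic samples and a range of -0.12 for Sel1l to 0.18 for Herpud1. For the 14 heat shock response genes it was 0.0025, with 7 higher and 7 lower and a range of -0.10 for Hsph1 to 0.14 for Bag3. The median over all 24967 genes was -0.00050. Within slide 2, which leaves out wild-type replicate 1, the unfolded protein response had 11 higher and 9 lower with a median of 0.014, and the heat shock response 11 higher and 3 lower with a median of 0.034.

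**Figure D1:**
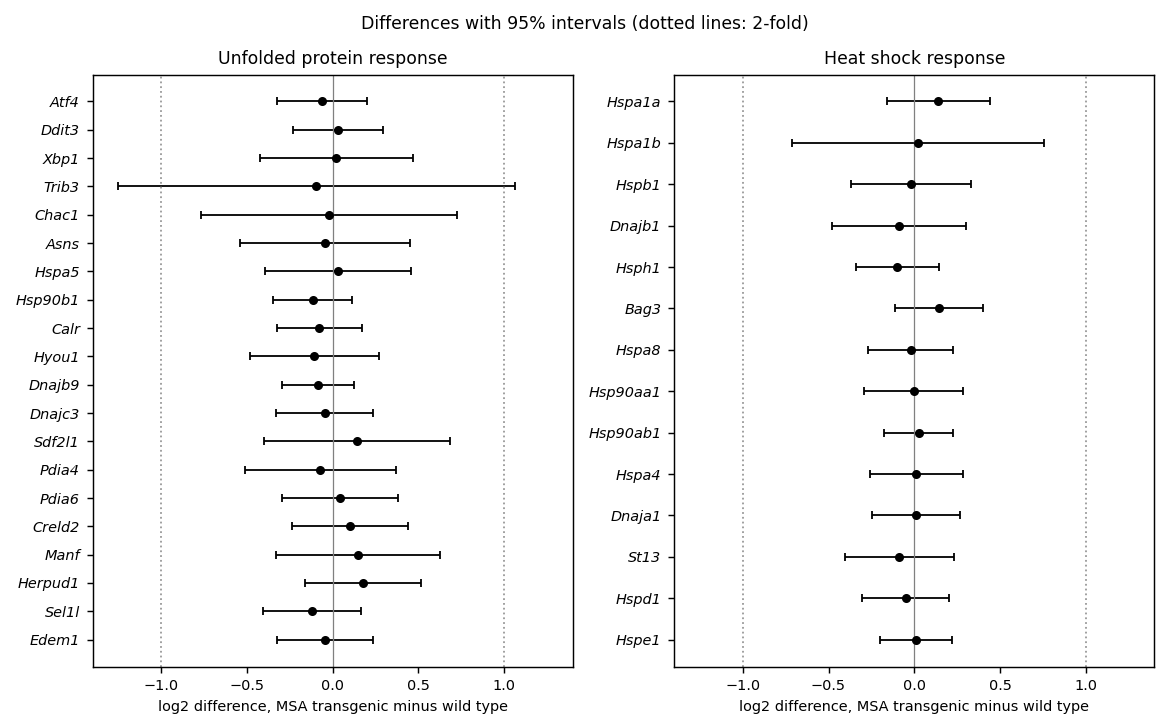
Log2 difference of each member gene, MSA transgenic minus wild type, for 1 probe a gene, with points for the estimate and bars for the 95% interval from limma (n = 3 samples a genotype). All 34 intervals include 0, and Trib3, from -1.25 to 1.06, is the gene whose interval passes the dotted 2-fold lines.

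The transcription factor genes of the unfolded protein response had differences near 0. Atf4 was at 6.07, 6.17 and 6.36 in transgenic samples, against 6.21, 6.28 and 6.31 in wild-type samples (difference -0.06, 95% interval -0.33 to 0.20). Ddit3, which encodes the pro-apoptotic factor CHOP, was at 0.39, 0.44 and 0.39 in transgenic samples and 0.32, 0.55 and 0.26 in wild-type samples (difference 0.03, interval -0.23 to 0.29). The groups overlapped in both genes. Xbp1 was at 4.95, 5.06 and 4.83 in transgenic samples, against 4.98, 5.23 and 4.57 in wild-type samples, a difference of 0.02 (interval -0.43 to 0.47). Wild-type replicate 2 was the highest and wild-type replicate 3 the lowest of the 6, so that the transgenic samples fell between them. The 3 Xbp1 probes had differences of 0.02, 0.10 and 0.10. The files annotate each of them to 2 RefSeq transcripts of Xbp1, so the spliced and unspliced forms were not told apart.

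A second Ddit3 probe, annotated to an Ensembl transcript (chr10:126731579-126731638, mm9), had the lowest difference of the unfolded protein response probes. It was at -0.38, -0.15 and -0.63 in transgenic samples, against -0.30, -0.02 and 0.16 in wild-type samples (difference -0.34, interval -0.76 to 0.09, limma adjusted p = 0.843). The groups overlapped, and the probe of the RefSeq transcript gave 0.03. With slide as a block, which sets the 3 transgenic arrays against the 2 wild-type arrays of slide 2, the difference of this probe was -0.46 (limma unadjusted p = 0.033, adjusted p = 0.573).

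Trib3, Chac1 and Asns, which ATF4 and CHOP are known to induce, shared an order of samples that did not follow genotype. Trib3, a pseudokinase gene, was at -1.59, -0.12 and -0.48 in transgenic samples, against -1.34, -0.51 and -0.07 in wild-type samples. Chac1, whose enzyme breaks down glutathione, was at 0.98, 1.75 and 1.88 in transgenic samples and 1.14, 1.59 and 1.96 in wild-type samples. Asns, asparagine synthetase, was at 4.38, 4.90 and 4.86 in transgenic samples and 4.43, 4.91 and 4.93 in wild-type samples. In all 3 genes replicate 1 was the lowest sample of its genotype in both genotypes, and the groups overlapped. The differences were -0.09 for Trib3 (SE 0.47), -0.02 for Chac1 (SE 0.31) and -0.05 for Asns (SE 0.20).

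The same order was found in the second Asns probe, so that it held for all 4 probes of these genes, against 15.7% of all tested probes and 17.6% of all genes. It was also found in Atf4, in both of its probes. The titles of both replicate 1 samples carry a number that begins with 7, and those of the other 4 samples a number that begins with 8. The labels do not say what the number stands for. The replicate 1 samples were on different slides, the transgenic one on slide 2 and the wild-type one on slide 1. With that digit as a block, an alternative chosen after this order was seen, the SE of Trib3 was 0.17, that of Chac1 0.13 and that of Asns 0.079. The difference of Trib3 was then -0.09 with an interval of -0.53 to 0.34. With this block 0 of 64 member probes had a limma unadjusted p under 0.05, against 7.88% of all probes.

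**Figure D2:**
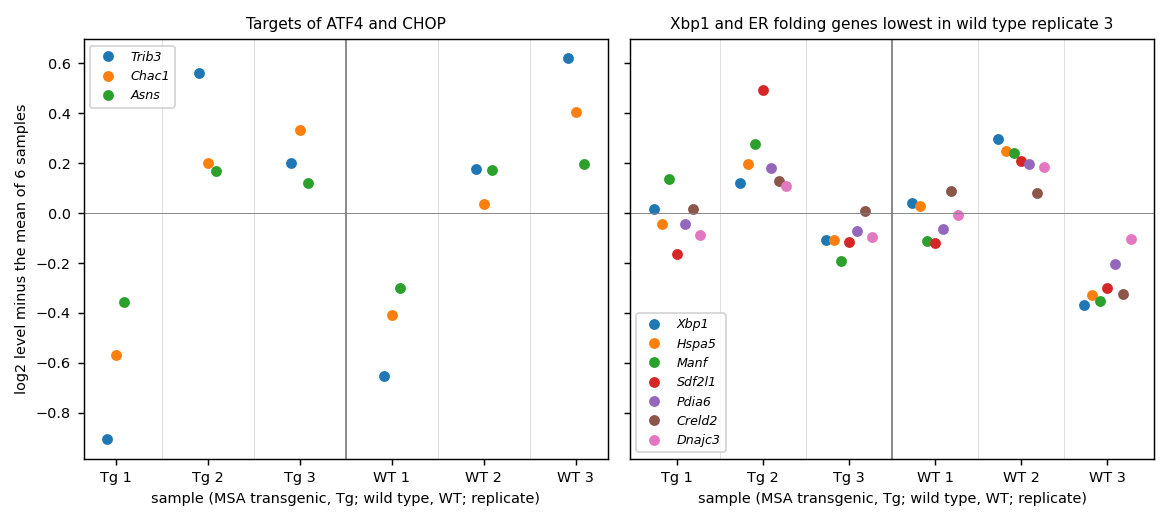
Log2 level of each gene minus its mean over the 6 samples, for the MSA transgenic (Tg) samples on the left of each panel and the wild-type (WT) samples on the right. Trib3, Chac1 and Asns are lowest in replicate 1 of both genotypes, and the right panel shows Xbp1 with the 6 ER chaperone and folding genes that were lowest in wild-type replicate 3, chosen for that order.

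ER chaperones and folding enzymes, the largest group of the unfolded protein response with 11 genes, had 5 genes higher and 6 lower in transgenic samples. Hspa5, which encodes BiP, the HSP70 of the ER and the usual read-out of ER stress, was at 5.26, 5.50 and 5.20 in transgenic samples, against 5.33, 5.55 and 4.97 in wild-type samples. Its difference was 0.03, with an interval of -0.39 to 0.46, or 0.76-fold to 1.37-fold. The other 2 probes of Hspa5 gave 0.02 and 0.01, so that all 3 lay within 0.023 of each other. Hsp90b1, the HSP90 of the ER also called GRP94, was at 5.30, 5.48 and 5.36 in transgenic samples, against 5.54, 5.53 and 5.42 in wild-type samples (difference -0.12, interval -0.35 to 0.11). Transgenic replicate 2 lay above wild-type replicate 3, so the groups overlapped.

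The lectin chaperone gene Calr had a difference of -0.08 (interval -0.33 to 0.17). Hyou1, a large HSP70 relative of the ER, had -0.11 (interval -0.48 to 0.27). The BiP co-chaperone genes of the J-domain family, Dnajb9 and Dnajc3, had -0.09 (interval -0.30 to 0.13) and -0.05 (interval -0.33 to 0.24). None of these 4 passed. All were slightly below the wild-type mean. Within slide 2, without wild-type replicate 1, Hyou1 had 0.048 and Calr -0.012, while Dnajb9 had -0.084 and Dnajc3 -0.064. The protein disulphide isomerase genes Pdia4 and Pdia6 had -0.07 and 0.04, and Creld2, a secreted ER protein, had 0.10 (interval -0.24 to 0.44). Of the 6 genes with an ER stress response element in the window, Hspa5, Pdia6 and Creld2 had differences above 0 and Hsp90b1, Calr and Dnajc3 below it.

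Manf and Sdf2l1 had the highest differences of this group. Manf, a secreted ER protein known from midbrain astrocytes and for sustaining dopamine neurons, was at 2.39, 2.53 and 2.06 in transgenic samples, against 2.14, 2.49 and 1.90 in wild-type samples (difference 0.15, interval -0.33 to 0.62). Sdf2l1, part of the BiP chaperone complex, was at 0.23, 0.89 and 0.28 in transgenic samples and 0.27, 0.60 and 0.09 in wild-type samples (difference 0.14, interval -0.40 to 0.69). In both genes replicate 2 was the highest sample of each genotype, and the samples of a genotype lay further apart than the genotype means.

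Part of the group shared an order of samples. Wild-type replicate 3 was the lowest of the 6 samples in 6 of the 11 genes, namely Hspa5, Manf, Sdf2l1, Pdia6, Creld2 and Dnajc3, where 12.2% of all genes had it lowest. All 3 Hspa5, both Manf and all 3 Xbp1 probes shared this. Replicate 2 was the highest in both genotypes in Dnajc3, Hspa5, Manf, Pdia6 and Sdf2l1, 5 of the 11, against 8.51% of all genes. Calr, Hsp90b1, Hyou1 and Pdia4 were instead highest in wild-type replicate 1, as were 32.7% of all genes. Genes and probes of one sample share its RNA and array, so these counts are a description. Without wild-type replicate 3 the difference of Hspa5 was -0.12 and that of Manf 0.0096.

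Of the ER-associated degradation genes, which remove misfolded proteins from the ER, Herpud1 had the highest difference of the arm with 1 probe a gene. It was at 3.44, 3.48 and 3.27 in transgenic samples, against 3.0, 3.45 and 3.21 in wild-type samples (difference 0.18, interval -0.16 to 0.52, limma adjusted p = 0.843). Its second probe gave 0.15, and within slide 2 the first gave 0.068. Sel1l, the scaffold of the HRD1 ubiquitin ligase complex, was at 4.53, 4.51 and 4.57 in transgenic samples, against 4.87, 4.56 and 4.54 in wild-type samples (difference -0.12, interval -0.40 to 0.17). Wild-type replicate 1 alone stood above the other 5 samples, and within slide 2 the difference was -0.012. A second Sel1l probe had 0.07, and within slide 2 it had 0.34 (limma unadjusted p = 0.0063, adjusted p = 0.397). Edem1, which directs misfolded glycoproteins to degradation, had -0.04 (interval -0.32 to 0.23). Its second probe had 0.24 (interval -0.12 to 0.60, limma adjusted p = 0.843), the highest difference of the unfolded protein response probes and of opposite sign.

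**Figure D3:**
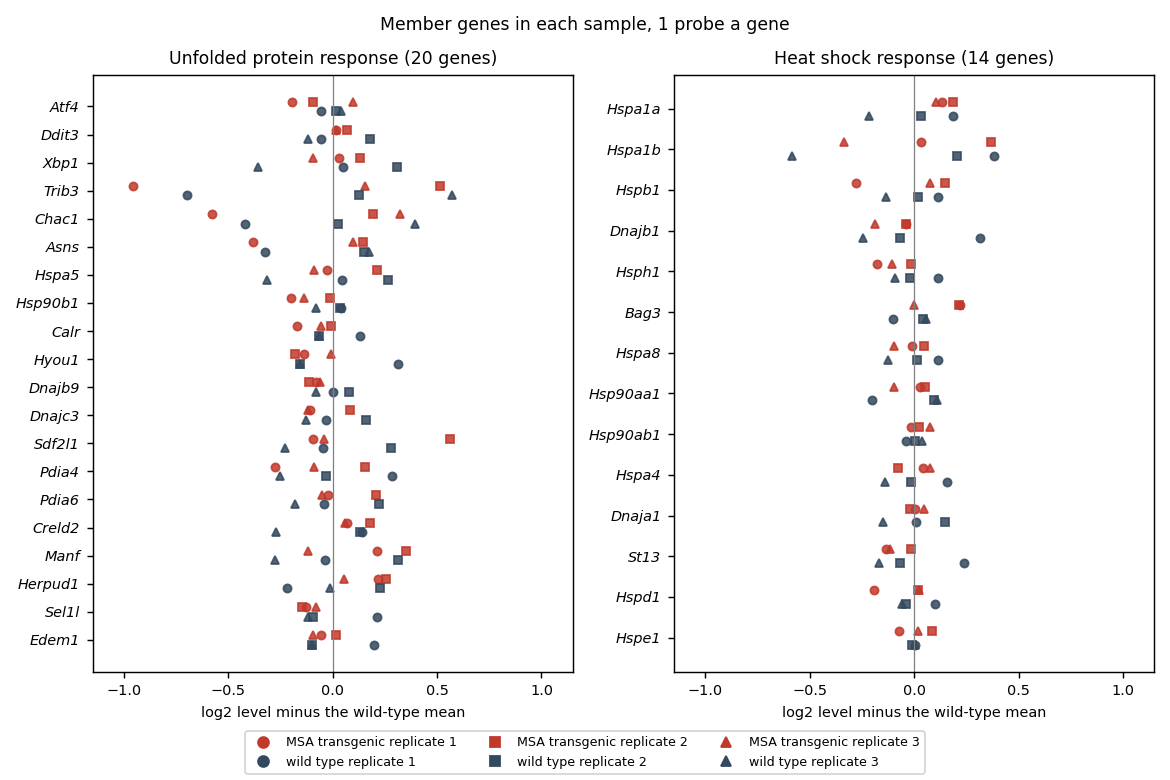
Log2 level of each member gene in each sample minus the wild-type mean of that gene, for 1 probe a gene, with the unfolded protein response on the left and the heat shock response on the right; MSA transgenic samples are drawn above wild-type samples, and the marker shape gives the replicate. The groups overlap in all 34 genes, and Trib3 and Chac1 spread furthest, with replicate 1 low in both genotypes.

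None of the 6 stress-inducible genes of the heat shock response was called. Hspa1a, an inducible HSP70 gene, was at 1.32, 1.38 and 1.30 in transgenic samples, against 1.38, 1.22 and 0.98 in wild-type samples (difference 0.14, interval -0.16 to 0.44). Its near-identical neighbour Hspa1b was at -0.74, -0.41 and -1.11 in transgenic samples and -0.39, -0.57 and -1.36 in wild-type samples (difference 0.02, interval -0.71 to 0.76). In both genes wild-type replicate 3 was the lowest sample. The probes of the pair match at no more than 21 of 60 bases at the offsets tried, yet each is annotated to a gene whose coding sequence the other nearly repeats. The annotated position of the Hspa1b probe spans 32 bases. How far either probe reads only its own gene was not tested.

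Bag3, a co-chaperone of selective autophagy, had the highest difference of the arm with 1 probe a gene. It was at 2.82, 2.82 and 2.60 in transgenic samples, against 2.50, 2.65 and 2.66 in wild-type samples (difference 0.14, interval -0.11 to 0.40, limma adjusted p = 0.843). Hsph1, which encodes the nucleotide exchange factor HSP105, had the lowest, at 4.0, 4.17 and 4.08 in transgenic samples, against 4.29, 4.16 and 4.09 in wild-type samples (difference -0.10, interval -0.34 to 0.14). The other 2 Hsph1 probes gave -0.17 and -0.10. Transgenic and wild-type values overlapped for both genes. Dnajb1, the J-domain partner of inducible HSP70, had -0.09 (interval -0.48 to 0.30), and the small heat shock protein gene Hspb1 had -0.02 (interval -0.37 to 0.33).

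Constitutive chaperones of the cytosol had differences near 0. Hsp90ab1, the constitutive HSP90, was at 6.95, 6.99 and 7.04 in transgenic samples, against 6.92, 6.97 and 7.0 in wild-type samples. Its SD within a genotype, 0.042, was the smallest of the 34 genes, and its difference was 0.03 (interval -0.18 to 0.23). Hspa8, the constitutive HSP70, was read by 4 probes with differences of -0.02, -0.02, 0.05 and -0.01. Hspa4, an HSP70 exchange factor, had 0.01 (interval -0.26 to 0.28), and the HSP70-interacting co-chaperone gene St13 had -0.09 (interval -0.41 to 0.23).

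Groups without overlap were found for 2 of the 64 member probes, both lower in transgenic samples and both of this group. Of all probes, 13.9% were without overlap, and 7.26% were both without overlap and lower. A Hsp90aa1 probe, for the inducible cytosolic HSP90, was at 5.71, 5.70 and 5.62 in transgenic samples, against 6.04, 5.80 and 5.78 in wild-type samples (difference -0.20, interval -0.45 to 0.06). The brighter Hsp90aa1 probe was at 6.42, 6.44 and 6.29 in transgenic samples, against 6.19, 6.48 and 6.50 in wild-type samples, a difference of -0.0044. These probes lay in opposite order in wild-type replicate 1, the highest sample for one and the lowest for the other. A Dnaja1 probe (chr4:40683501-40683560, mm9), for a farnesylated J-domain partner of HSP70, was at -2.33, -2.27 and -2.56 in transgenic samples, against -1.64, -2.26 and -2.21 in wild-type samples (difference -0.35, interval -0.82 to 0.12). Its nearest values were -2.27 in transgenic replicate 2 and -2.26 in wild-type replicate 2, and the brightest Dnaja1 probe gave 0.01. By 1 probe a gene, 0 of 34 members were without overlap, against 14.9% of all genes. The share of members without overlap was thus below that of all probes.

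The mitochondrial chaperonin genes Hspd1 and Hspe1, whose promoters face each other, had differences of -0.05 (interval -0.31 to 0.20) and 0.01 (interval -0.20 to 0.22). One of the 3 Hspe1 probes, which spans an exon junction (chr1:55147620-55147946, mm9), had the highest difference of all member probes, 0.76, with an interval of -1.0 to 2.51. It was at 1.76, 2.04 and 1.99 in transgenic samples, against -0.59, 2.09 and 2.02 in wild-type samples. Wild-type replicate 1 alone was low, while the other Hspe1 probes were at 4.54 and 4.13 in that sample and at 3.79 to 4.62 in the others. Within slide 2 the difference of this probe was -0.12.

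Probes of the same gene gave differences of the same sign in 9 of the 19 genes with at least 2 tested probes and of opposite sign in 10. The median gap between the highest and the lowest difference of a gene was 0.10, and the widest was 0.89 for Hspe1. Next came Ddit3 with 0.37 and Dnaja1 with 0.36, while the Hspd1 probes lay 0.021 apart.

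**Figure D4:**
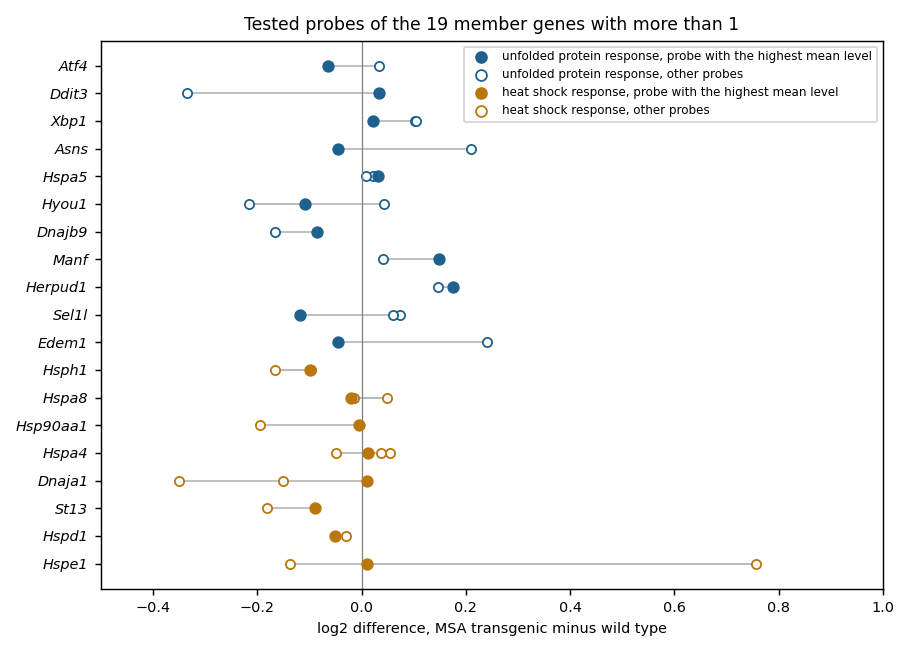
Log2 difference, MSA transgenic minus wild type, of each tested probe of the 19 member genes with more than 1, where filled points are the probe with the highest mean level and open points the others. Nearly all points lie within 0.4 of 0, and the open Hspe1 point at 0.76 comes from the probe that was low in wild-type replicate 1.

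The spread between samples of a genotype was a median SD of 0.17 for the unfolded protein response genes, 0.11 for the heat shock response genes and 0.18 for all genes. It was highest in Trib3 (0.71), Chac1 (0.45) and Hspa1b (0.44). Taken over an arm, the median level relative to the wild-type mean was -0.10, 0.14 and -0.052 in the transgenic samples for the unfolded protein response, against -0.015, 0.13 and -0.12 in the wild-type samples. For the heat shock response it was -0.015, 0.033 and 0.0067 in the transgenic samples, against 0.11, 0.0090 and -0.13 in the wild-type samples. In both arms the wild-type samples alone spanned the transgenic medians or nearly so. Wild-type replicate 1 was the highest sample in 7 of 14 heat shock response genes, against 32.7% of all genes. Wild-type replicate 3 was the lowest in 7 of 14, against 12.2% of all genes.

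Other genes of the same pathways, taken from lists chosen by function, were not called either. Of 63 tested genes related to the unfolded protein response, 0 passed in limma with adjustment over all probes. A limma unadjusted p under 0.05 was found for 3 of them, against 1432 of all 24967 genes. In transgenic samples 25 were higher and 38 lower, and the median difference was -0.036. Creb3l2, an ER-anchored transcription factor gene of the ATF6 type, had the smallest p of the 63. It was at 0.73, 0.64 and 0.69 in transgenic samples, against 0.38, 0.27 and 0.31 in wild-type samples (difference 0.37, interval 0.16 to 0.57, limma adjusted p = 0.501). The groups did not overlap, but the difference was not called. Groups without overlap made up 8 of the 63 genes, or 12.7%, against 14.9% of all genes. Slc7a11, the cystine transporter gene induced by ATF4, had 0.27 (limma adjusted p = 0.835), and Dnajc10, an ER disulphide reductase gene, had -0.23 (limma adjusted p = 0.843).

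No sensor gene passed. Atf6, whose protein is the sensor cut during ER stress, was at -0.24, 0.0038 and -0.088 in transgenic samples, against 0.30, 0.013 and 0.036 in wild-type samples (difference -0.22, interval -0.52 to 0.073, limma adjusted p = 0.843). Its groups did not overlap, with transgenic replicate 2 just below the lowest wild-type sample. In the integrated stress response list, which holds further genes downstream of ATF4, the median difference was 0.061 over 18 genes and -0.037 within slide 2. The stress-induced mTOR inhibitor gene Ddit4 had 0.37 (interval -0.075 to 0.82). Replicate 1 was lowest in both genotypes in 9 of these 18 genes, against 17.6% of all genes. They were Aldh18a1, Atf5, Gdf15, Mthfd2, Phgdh, Psat1, Sesn2, Shmt2 and Slc7a5, named after their values were seen. This is the order already given for Trib3, Chac1 and Asns. Other ER folding genes had a median of -0.069 over 19 genes with 16 lower. Wild-type replicate 1, alone on slide 1, was the highest sample in 14 of the 19, against 32.7% of all genes, and within slide 2 the median was -0.038 with 11 lower. Among them Ero1lb, an ER oxidase gene, had -0.86 with an interval of -1.91 to 0.19. Among 14 other ER-associated degradation genes, Edem2 had 0.25 and Derl1 -0.20, neither called.

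Of 55 tested genes related to the heat shock response, 0 passed, and 0 had a limma unadjusted p under 0.05, against 1432 of all 24967 genes. Of the 55, 15 were higher and 40 lower, and the median difference was -0.059. Wild-type replicate 1 was the highest sample in 30 of the 55, against 32.7% of all genes. Within slide 2 there were 24 higher and 31 lower, with a median of -0.022. Cryab, a small heat shock protein gene that oligodendrocytes express strongly, was at 4.34, 4.34 and 4.44 in transgenic samples, against 4.81, 4.53 and 4.57 in wild-type samples (difference -0.26, interval -0.53 to 0.0015, limma adjusted p = 0.843). The HSP90 co-chaperone genes Fkbp4 and Ahsa1 had -0.18 and -0.15, and Grpel2 and Hspa9, of the mitochondrial HSP70 machine, -0.19 and -0.16. In each of these 5 genes the transgenic values lay below all wild-type values. Groups without overlap made up 6 of the 55 genes, or 10.9%, against 14.9% of all genes. The heat shock factor genes Hsf2 and Hsf4 had -0.16 and -0.22, the J-domain gene Dnajc5 and the HSP70 gene Hspa2 had -0.14 and 0.089, Cct6a and Cct8 of the TRiC chaperonin -0.10 and -0.075, and the small heat shock protein gene Hspb7 0.39. None of these 7 passed, and the groups overlapped in all of them. Dnaja3, named after its values were seen, repeated the pattern of the Hspe1 probe, at 5.23, 5.33 and 5.30 in transgenic samples, against 3.06, 5.27 and 5.34 in wild-type samples.

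**Figure D5:**
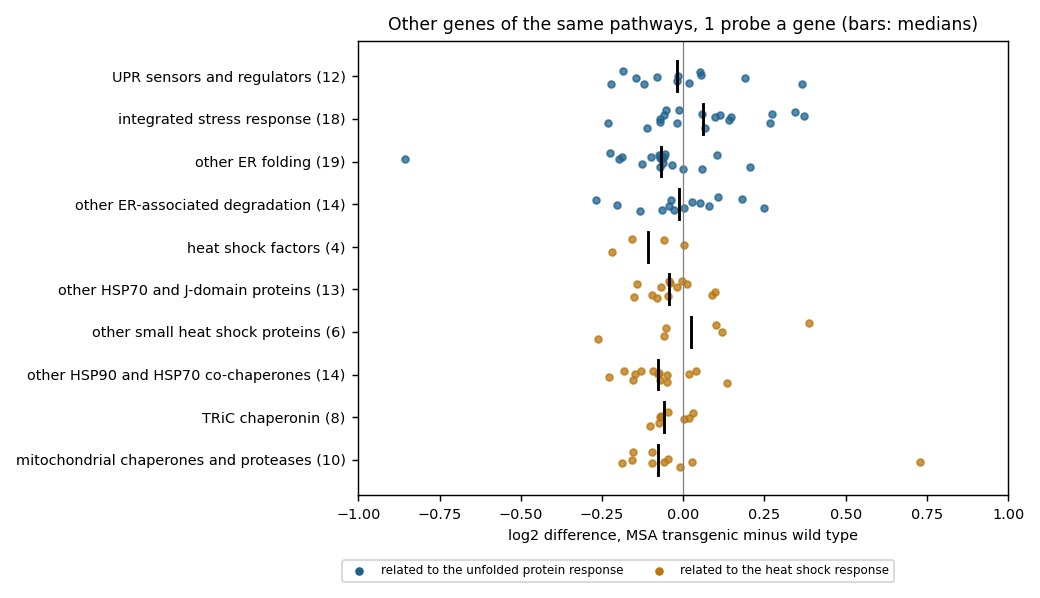
Log2 difference, MSA transgenic minus wild type, of the other genes of the same pathways, with a point for each gene (1 probe a gene), a bar for the median of the list and the number of genes tested in brackets. None of the points was called, and the medians lie between -0.11 for the heat shock factors and 0.061 for the integrated stress response.

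Markers of some cell types leaned in 1 direction between the genotypes, those of others were mixed, and none was called. Of 7 microglial genes, 7 were higher in transgenic samples, with a median difference of 0.31 and a range of 0.046 to 0.82. Of 6 oligodendrocyte genes, 5 were lower (median -0.29), and all 5 Purkinje cell and all 5 granule cell genes were lower (medians -0.15 and -0.23). Astrocyte genes were mixed, with 3 higher and 3 lower, as were choroid plexus genes, with 2 and 2. Brainstem neuron genes and endothelial genes each had 2 higher and 3 lower. All 3 blood genes were higher (median 0.099). Of 10 immediate early genes, 9 were higher, with a median of 0.30 and a range of -0.073 to 1.33, and 0 were called. Among them was Atf3, named after its values were seen and not part of the related lists above. It was at -2.59, -2.59 and -2.53 in transgenic samples, against -3.18, -3.39 and -3.38 in wild-type samples (difference 0.75, interval 0.51 to 0.98, limma adjusted p = 0.147). The genes of these lists were all measured well above background, and the part of such shifts in the levels of the members was not tested.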

How the data were processed

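Total RNA of 6 samples was labelled with Cy3 and hybridised to 1 array each, per the labels' protocols. The deposited scanner files hold linear intensity values, from which Feature Extraction 10.7.1.1 had subtracted background, with probes placed on mm9, per the file headers. The submitters' processing notes name version 9.5.1.1. The authors' deposited value table of intensity values served as an alternative only.

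From these, processed signals were divided by the 75th percentile of their array and put on the log2 scale, without control spots and 39 to 84 outlier spots per array. No spot was saturated. Spots of a probe were averaged. A probe was tested where every array of either genotype read it well above background (38463 probes). Genotypes were set against each other in limma 3.58.1 under R 4.3.3, by lmFit and eBayes over all 6 samples, with Benjamini-Hochberg adjustment over all of them and calls at adjusted p under 0.05. The number of arrays limits the precision. On simulated data of 38463 probes, 38% of 100 planted log2 changes of 1 and 79% of 100 of 2 were recovered. There were 12 false calls. The simulated noise was independent between samples, drawn at the SD of each probe within genotype, and held no slide effect. Changes smaller than 1 were not planted, so recovery at the size of the member differences was not tested.

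The members and all lists were chosen with earlier results of these data known. All 34 members may be named, and of each related list the 2 tested genes with the smallest p; other genes are said to be named after their values were seen. Replicates were numbered in accession order, which by itself pairs no samples. The title numbers are 756, 810 and 812 for transgenic replicates 1 to 3, against 757, 809 and 811 for wild type. Each replicate number thus joins a transgenic and a wild-type sample with adjacent title numbers. It is not known if these samples form pairs, and no paired fit was run. Promoters came from RefSeq (GRCm38.p6) and were not joined to mm9 positions. Alternatives covered background correction (normexp, offset 50), scaling, filters, slide, variance model, probe choice and each sample left out. The forebrain marker list is not reported here.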

Additional observations from a re-analysis of the deposited data

How the results depend on the processing

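Member probes called stayed at 0 in both arms under all 17 alternatives run, with a lowest adjusted p of 0.397 in the unfolded protein response and 0.543 in the heat shock response. The arm medians ranged from -0.072 to 0.037 and from -0.074 to 0.034, over the same alternatives. At a limma unadjusted p under 0.05, 2 of 64 member probes (Ddit3 and Sel1l), or 3.13%, passed with slide as a block, with array weights and without wild-type replicate 1. Of all probes, 8.27%, 9.45% and 8.29% passed in these settings. Without wild-type replicate 2, 1 member probe (Edem1), or 1.56%, passed, against 6.43% of all probes. In the other settings 0 members passed, against 3.92% to 9.10% of all probes or genes. The difference of Trib3 was -0.44 with slide as a block and 0.33 without transgenic replicate 1, neither called. Over all probes the number called, 11, was 37 with normexp, 34 with an intensity trend and 94 with array weights. It was 24 when the probes of each gene were averaged. It was 23 of the 35552 probes that every array read well above background, and 4 of 56605 with no filter. It was 0 to 11 with 1 sample left out, namely 0 in limma without transgenic replicate 1, transgenic replicate 2 or wild-type replicate 3 (where 1618, 1825 and 2067 had an unadjusted p below 0.05), 5 without transgenic replicate 3 and 4 without wild-type replicate 2. The cause of these shifts was not tested. With the samples blocked by the leading digit of their title numbers, chosen after seeing the data, it was 12. The title numbers hold no replicate number shared between the genotypes. No fit paired samples by adjacent title numbers either, so what such a pairing would change was not tested. The leading digit is the only part of the title numbers used as a block. Precision was lowest for a Hspe1 probe (SE 0.72) and Trib3 (SE 0.47), both well above background on all 6 arrays.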
